A study of Mus musculus with 6 samples.

Results

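The CTCF sites described here are the peaks that 3 deposited lists hold on mouse chromosome 14 between 69.7 and 70.15 Mb (genome build mm9), a window of 450 kb around the genes Slc25a37 and Entpd4. They were taken by position alone, in a window chosen with earlier results of these data known. Of the 102348 peaks in the 3 lists, 51 lay in the window: wild type had 18 of its 40271 peaks there, clone D 16 of 29769 and clone C8 17 of 32308. Peaks of different lists that overlapped by at least 1 bp were joined into a site, which gave 19 sites in the window out of 48367 in the whole genome, numbered 1 to 19 along the chromosome. All 3 sites that lie between the genes were called in wild type and in both BRD2-null clones.

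The lists come from chromatin immunoprecipitation and sequencing (ChIP-seq) of CTCF in G1E-ER4 cells, a line of mouse erythroblasts that have no GATA1 of their own and express a GATA1-ER fusion protein. All 3 groups of cells carry this background, and all were given 100 nM estradiol for 24 hours to activate the fusion protein. The wild-type G1E-ER4 cells gave 1 CTCF library. D_Brd2KO and C8_Brd2KO, sub-lines made with CRISPR/Cas9 that express no detectable BRD2, gave 1 library each, and each is a single clone.

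Slc25a37 encodes mitoferrin 1, the carrier that brings iron into mitochondria for heme synthesis in developing red cells. Entpd4 encodes a membrane-bound enzyme of the Golgi and lysosomal system that removes phosphates from nucleotides. CTCF is a zinc finger protein that halts the extrusion of chromatin loops by cohesin, so that its sites often form the edges of chromatin domains and can separate a gene from the enhancers of its neighbour. BRD2 is a BET protein that binds acetylated histones and is found at many CTCF sites. The title of the study names a transcriptional boundary that BRD2 and CTCF enforce together, and the comparison addressed here is whether CTCF is still called at the sites between these genes when BRD2 is absent.

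Slc25a37 (gene ID 67712) was taken to lie at about 69.86 to 69.9 Mb and Entpd4 (gene ID 67464) at about 69.95 to 69.98 Mb, bounds rounded to 10 kb. No mm9 annotation was used here, so exons, introns and start sites could not be assigned. In the RefSeq annotation of another build, GRCm38.p6, 3 genes lie wholly between them: Synb, which encodes the placental cell-fusion protein syncytin-B, and the long non-coding RNAs Gm41197 and Gm16677. Entpd4b, a gene closely related to Entpd4, and Loxl2, which encodes a lysyl oxidase, lie on the side of Entpd4. Whether mm9 holds the Entpd4b copy, and how reads that fit more than 1 place were treated, was not examined here.

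The value given for each peak is the authors' fold enrichment (a ratio; what it was divided by is not stated), followed by its rank within its own list, where rank 1 is the strongest peak. Enrichments were on different scales in the lists, with medians over all peaks of 22.7 in wild type, 17.4 in clone D and 21.5 in clone C8, so they were compared within a list and not between lists. The depth of the libraries is unknown. With 1 library of wild type there is no replicate check and no test of genotype. Libraries of the same genotype can be compared only between clones D and C8.

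Between the genes, site 10 covered 69903086 to 69903485 on chromosome 14. Its peak had an enrichment of 31.7 in wild type (rank 14331 of 40271), 15.3 in clone D (rank 17125 of 29769) and 20.9 in clone C8 (rank 16439 of 32308). The site was called in all 3 libraries, at a middle rank in each. Its centre lay 3.28 kb beyond the rounded bound of Slc25a37 in wild type, which is less than the 5 kb of rounding, so it may lie inside that gene or just outside it.

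Site 11 covered 69942372 to 69942936, and site 12 covered 69943795 to 69944343. Site 11 had an enrichment of 29.7 in wild type (rank 15330), 12.2 in clone D (rank 20976) and 20.7 in clone C8 (rank 16582). Site 12 had an enrichment of 55.5 in wild type (rank 5203), 16.6 in clone D (rank 15623) and 29.3 in clone C8 (rank 10913). Site 12 was thus the strongest of the 3 sites between the genes in each library, and by rank it was farther up its list in wild type than in either clone, also among the sites common to all lists (given later). The centres of sites 11 and 12 in wild type lay 7.31 and 5.93 kb from the rounded bound of Entpd4, both farther than the rounding, and 1.42 kb from each other as joined sites. If the interval is narrowed by 10 kb on each side it holds 0 sites, since all 3 lie near its ends, so the placement of this pair rests on the bound of Entpd4.

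Within each library, site 12 stood above its neighbours by different factors. The enrichment of site 12 was 1.87 times that of site 11 in wild type, 1.36 times in clone D and 1.42 times in clone C8. Against site 10 the factors were 1.75, 1.08 and 1.40. Wild type had the highest factor in each case, and for site 10 the clones differed from each other about as much as clone C8 differed from wild type.

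The peaks joined at each of these sites had centres close together, which the joining of overlapping peaks partly ensures. A peak that had moved away would have counted as another site, so the distances given here cannot test for a shift. They were not compared with those of sites elsewhere in the genome. The centre of site 10 in clones D and C8 differed from that in wild type by 9.5 and −12.5 bp, that of site 11 by −65.5 and 25 bp, and that of site 12 by −21.5 and −56 bp. The peak of site 12 was 545 bp wide in wild type, and 510 and 441 bp wide in clones D and C8. Over the 15 sites of the window called in all lists, the median distance of centres was 60.5 bp between clone D and wild type, 29 bp between clone C8 and wild type, and 34.5 bp between the clones.

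**Figure D1:**
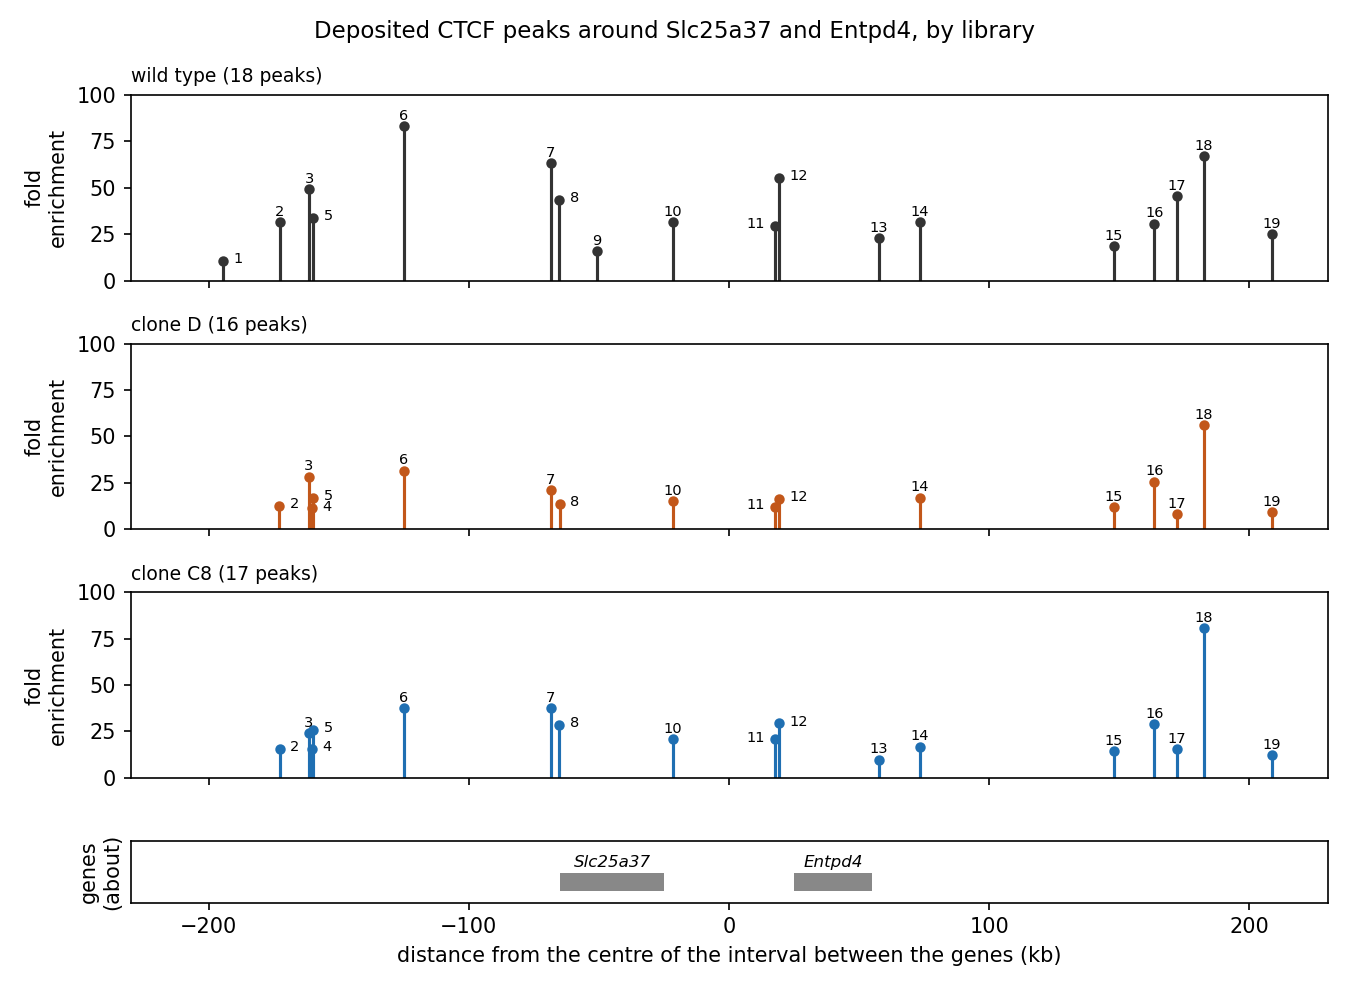
CTCF peaks of the window in each library. Each stem is 1 deposited peak, at its distance in kb from the centre of the interval between the genes (x axis). Its height is the authors' fold enrichment (y axis), and the site number stands beside its top. The y axis has the same range in each panel, but heights are not comparable between libraries. Grey bars are the rounded gene bounds. Sites 10, 11 and 12 between the genes are present in all 3 libraries, and sites 1 and 9 in wild type alone.

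Calls over the whole window were mostly shared. Both clones had a peak at 15 of the 18 wild-type peaks (83.3%, exact 95% interval 58.6 to 96.4, for counting error only), against 59.8% of all wild-type peaks. The interval treats the 18 peaks as independent, which neighbouring peaks of 1 library are not, so it is no test against that share. In the other direction 15 of 16 peaks from clone D and 15 of 17 from clone C8 had a partner in both other lists, against 80.6% and 74.5% of those lists. Seen as sites, 15 of 19 were called in all 3 lists, against 49.5% of all sites. These are shares of few sites, and across the genome the share called in the clones rises with the strength of the peak. The wild-type list was ordered by enrichment and cut into 10 equal strength classes, with the weakest peaks in class 1, and 16 of the 18 wild-type peaks of the window were in class 5 or above, and 15 of these 16 were found in both clones. Of all wild-type peaks, 56.4% of class 5, 78.9% of class 6, 93.5% of class 7 and 98.3% of class 8 were found in both clones. The shares were 99.6% in class 9 and 99.7% in class 10. The 83.3% in the window and the 59.8% of all wild-type peaks were not matched for strength. Site 10 and site 11 were in class 7, and site 12 was in class 9.

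The other 4 sites were each missing from at least 1 list. Site 1 (69730229 to 69730724) was called in wild type only, with an enrichment of 10.6 at rank 37660, in class 1, where 5.74% of wild-type peaks were found in both clones. Across the genome 26.2% of sites were called in wild type only, and 2 of the 19 sites of the window were. Site 9 (69874196 to 69874424), within the bounds of Slc25a37, was also called in wild type only. It had an enrichment of 16.1 at rank 26683, in class 4, where the share found in both clones was 34.9%. The authors' false discovery rate, given as a fraction, was 0.3955 at site 1 and 0.2137 at site 9, so neither was a firm call. Site 9 was the only site with its centre inside the rounded bounds of Slc25a37, and no site had its centre inside the rounded bounds of Entpd4. Its peak of 229 bp was the narrowest of the wild-type peaks in the window.

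Site 13 (69982401 to 69982726) had its wild-type centre 2.55 kb past the rounded end of Entpd4, less than the 5 kb of rounding, so it may lie inside that gene or just outside it. It had an enrichment of 22.8 in wild type (rank 20046) and 9.77 in clone C8 (rank 29942), and it was not called in clone D. In wild type it was in class 6, where 78.9% of peaks were found in both clones. It was the only site of the window on which the BRD2-null clones differed in their call. The authors' false discovery rate for it was 0.068 in wild type and 0.0776 in clone C8. Across the genome 4.54% of sites were called in wild type and clone C8 but not in clone D. Site 13 was near the weak end of the clone C8 list, and its −log10 p there was 6.03, so a threshold of 10 on that value ends the call in clone C8.

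Site 4 (69764492 to 69764885) was the only site that both clones had and wild type lacked, a class that held 4.48% of all sites. Its enrichment was 11.2 in clone D (rank 22163) and 15.5 in clone C8 (rank 21435). The wild-type peak of the neighbouring site 5 began 19 bp from its end, and of the 2167 sites of this class in the genome, 6.23% lay within 1 kb of a wild-type peak. With peaks extended by 500 bp, sites 3, 4 and 5 became 1 site that was called in all libraries. Wild type therefore had signal called right beside site 4, but no separate peak on it.

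**Figure D2:**
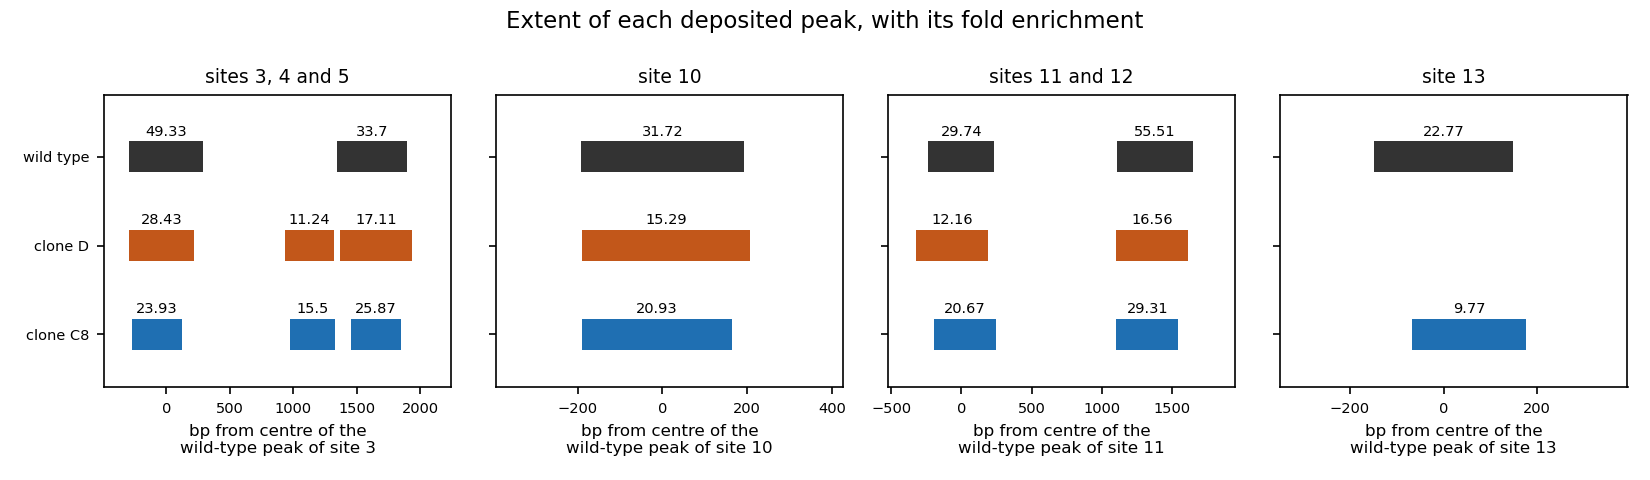
Extent of the deposited peaks at the sites between the genes and at sites 3, 4, 5 and 13. Each bar is 1 peak, placed in bp from the centre of the first-named site's wild-type peak (x axis), in wild type, clone D and clone C8 (y axis), with the authors' fold enrichment above it. Sites 10, 11 and 12 overlap in all libraries, site 4 has no bar in wild type and site 13 none in clone D.

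On the side of Slc25a37, sites 2 to 8 were called in both clones. Site 2 (69751923 to 69752415) had an enrichment of 31.7 in wild type (rank 14331), 12.6 in clone D (rank 20205) and 15.6 in clone C8 (rank 21192). Site 3 (69763267 to 69763849) had values of 49.3 (rank 7265), 28.4 (rank 6826) and 23.9 (rank 14348) in the same order of libraries. Site 5 (69764905 to 69765493) had an enrichment of 33.7 (rank 13327), 17.1 (rank 15303) and 25.9 (rank 12863). At sites 3 and 5 one clone lay on each side of wild type when ranks were taken over the same set of sites, as given later.

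Site 6 (69799715 to 69800374) was the strongest peak of the window in wild type, with an enrichment of 83.3 at rank 1053. It had an enrichment of 31.7 in clone D (rank 5249) and 37.4 in clone C8 (rank 6895). Sites 7 (69856197 to 69856769) and 8 (69859420 to 69860160) lay 3.31 kb apart at the end of Slc25a37 that faces away from Entpd4, and on which side of the rounded bound they lie cannot be told from it. Site 7 had an enrichment of 63.4 in wild type (rank 3457), 21.1 in clone D (rank 11653) and 37.5 in clone C8 (rank 6667). Site 8 had an enrichment of 43.6 in wild type (rank 8994), 13.5 in clone D (rank 19079) and 28.4 in clone C8 (rank 11243). Among the sites common to all lists both ranked weaker in clone D than in clone C8, so the clones differed from each other here.

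On the side of Entpd4, sites 14 to 19 were called in both clones. Site 14 (69998174 to 69998551) had an enrichment of 31.7 in wild type (rank 14331), 17.1 in clone D (rank 15337) and 16.8 in clone C8 (rank 20585). Site 15 (70072747 to 70073139) had values of 18.6 (rank 23832), 11.8 (rank 21223) and 14.6 (rank 22538). Site 16 (70088184 to 70088713) had values of 30.7 (rank 15054), 25.7 (rank 8386) and 29.03 (rank 11010). Among the sites common to all lists site 16 ranked stronger in both clones than in wild type, the opposite of site 12.

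Site 17 (70096847 to 70097381) had an enrichment of 45.6 in wild type (rank 8186), 8.28 in clone D (rank 26757) and 15.6 in clone C8 (rank 21192). Site 18 (70107110 to 70107684) had an enrichment of 66.9 in wild type (rank 2970), 56.1 in clone D (rank 418) and 80.6 in clone C8 (rank 232). Site 19 (70133323 to 70133847) had values of 25.3 (rank 18436), 9.38 (rank 25110) and 12.2 (rank 25890). The −log10 p was 6.62 at site 17 in clone D and 7.51 at site 19 in clone C8. A threshold of 10 on that value ends both of these calls. Site 18 was the strongest peak of the window in both clones, while site 6 held that place in wild type.

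The exchange of places between sites 6 and 18 can be read within each library. The enrichment of site 18 was 0.804 times that of site 6 in wild type, 1.77 times in clone D and 2.16 times in clone C8. By −log10 p the order in each library was the same, but in clone D the values were near each other. They were 72.5 at site 18 and 70.7 at site 6 there, against 79.2 and 49.3 in clone C8 and 51.6 and 71.1 in wild type. Sites 16 and 17, whose joined centres lie 8.67 kb apart, also changed order: site 17 had 1.48 times the enrichment of site 16 in wild type, 0.322 times in clone D and 0.538 times in clone C8. In contrast, the pair of sites 7 and 8 kept its order, with site 7 at 1.45, 1.56 and 1.32 times the enrichment of site 8. The clones disagreed on the pair of sites 3 and 5. Site 3 had 1.46 times the enrichment of site 5 in wild type, 1.66 times in clone D and 0.925 times in clone C8.

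Ranks in lists of different lengths do not show a change, so the 15 shared sites were also ranked by enrichment within the 23933 sites that all 3 lists hold. The rank is given in percent, with the strongest sites near 0 and the weakest near 100. Site 10 was at 59.9% in wild type, 69.7% in clone D and 67.04% in clone C8. The mean of the clones there was weaker than wild type by 8.42 points. Site 11 was at 63.8%, 82.3% and 68.4%, weaker by 11.5 points. Site 12 was at 22.1%, 64.3% and 45.3%, weaker by 32.7 points. A median common site differed by 12.4 points in either direction between the mean of the clones and wild type, and by 12.2 points between the clones. Sites 10 and 11 were within that ordinary spread. The difference at site 12 was larger in size than that of 89.8% of common sites, and the clones differed from each other by 19.02 points there. These common sites were not matched for their rank in wild type.

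By −log10 p in place of enrichment, the differences at sites 11 and 12 moved by more than 1.5 times, that of site 11 to 7.49 points. Site 12 was then at 28.1% in wild type, 57.4% in clone D and 30.7% in clone C8, a mean difference of 15.9 points. A median common site differed by 10.5 points in either direction by −log10 p. Clone C8 was thus 2.56 points from wild type by this measure, and clone D alone was far from it. The −log10 p of site 12 was 35.5 in wild type, 22.3 in clone D and 36.4 in clone C8.

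**Figure D3:**
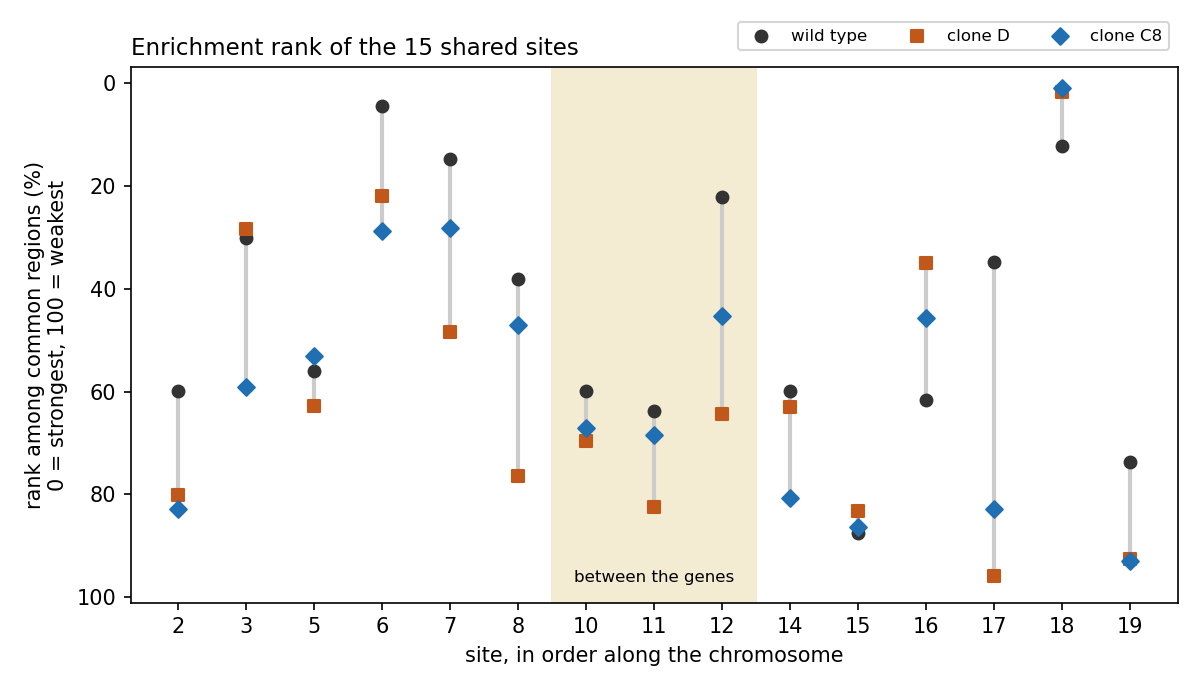
Rank of the 15 shared sites by enrichment among the 23933 sites common to all lists, in percent (y axis, strongest at the top), for each site along the chromosome (x axis). Symbols are the 3 libraries, grey lines span them and the shaded sites lie between the genes. Site 12 falls from 22.1% in wild type to 45.3% and 64.3% in the clones, while site 18 is nearer the top in both clones than in wild type.

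In all, 10 of the 15 shared sites (66.7%) had a weaker rank in both clones than in wild type, against 34.7% of all common sites. A stronger rank in both clones was seen at 3 of the 15 (20%), against 35.7% of all common sites. At 6 of the 10 weaker sites both clones differed from wild type by more than they differed from each other, and 17.3% of common sites did so in that direction. These 6 were sites 2, 6, 10, 12, 17 and 19. The same held at 2 of the 3 stronger sites, sites 16 and 18, against 19.7% of common sites. By −log10 p the counts were again 10 weaker, against 35.7%, and 3 stronger, against 35.8%, but 8 of the weaker and 2 of the stronger were the same sites by both measures. Sites at which both clones differed from wild type by more than from each other numbered 6 weaker, against 18.3%, and 1 stronger, against 20.1%, by −log10 p. Sites 10, 17 and 19 among the weaker and site 18 among the stronger met this by both measures. Sites 2, 6, 12 and 16 did so by enrichment only, and sites 7, 8 and 11 by −log10 p only. Neighbouring sites share their libraries and are not independent, and all these differences share the 1 wild-type library, so the counts describe these lists and are not a test. Differences of depth between the libraries cannot be told apart from genotype here.

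Site 17 had the largest rank difference of the window. It stood at 34.8% in wild type, 95.8% in clone D and 82.9% in clone C8. The mean difference of 54.5 points was larger in size than that of 99.2% of common sites, which were not matched for rank in wild type. By −log10 p the mean difference was 44.9 points. The next in the weaker direction after site 12 were site 8 at 23.7 points and site 7 at 23.4 points, and at both the clones differed from each other by more than clone C8 differed from wild type. This turned round by −log10 p, where sites 7 and 8 were weaker by 26.8 and 29.6 points, more than site 12. The clones were then 11.8 and 15.1 points apart, against 20.9 and 22.03 points between clone C8 and wild type. Site 2 was weaker by 21.6 points, site 6 by 20.8 and site 19 by 19.1. At site 19 the clones were 0.267 points apart, and by −log10 p its difference was 13.5 points. By −log10 p the difference at site 6 was 8.70 points. Site 2 then differed by 5.55 points and site 14, weaker by 11.8 points by enrichment, by 1.93 points, and at both the clones lay on either side of wild type.

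In the stronger direction, site 16 stood at 61.7% in wild type, 34.96% in clone D and 45.7% in clone C8, a mean difference of −21.3 points. Site 18 stood at 12.4%, 1.74% and 0.978%, a mean difference of −11.01 points, with the clones 0.765 points apart, and by −log10 p a mean difference of −6.42 points. Site 5 had a mean difference of 2.03 points with the clones on either side of wild type, and by −log10 p it ranked stronger in both clones, with a mean difference of −11.98 points. Site 15 differed by −2.70 points, and by −log10 p this small difference had the other sign, at 1.40 points. The window therefore held sites with weaker and sites with stronger ranks in both clones, and sites 16 and 17, 8.67 kb apart, moved in opposite directions by both measures.

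**Figure D4:**
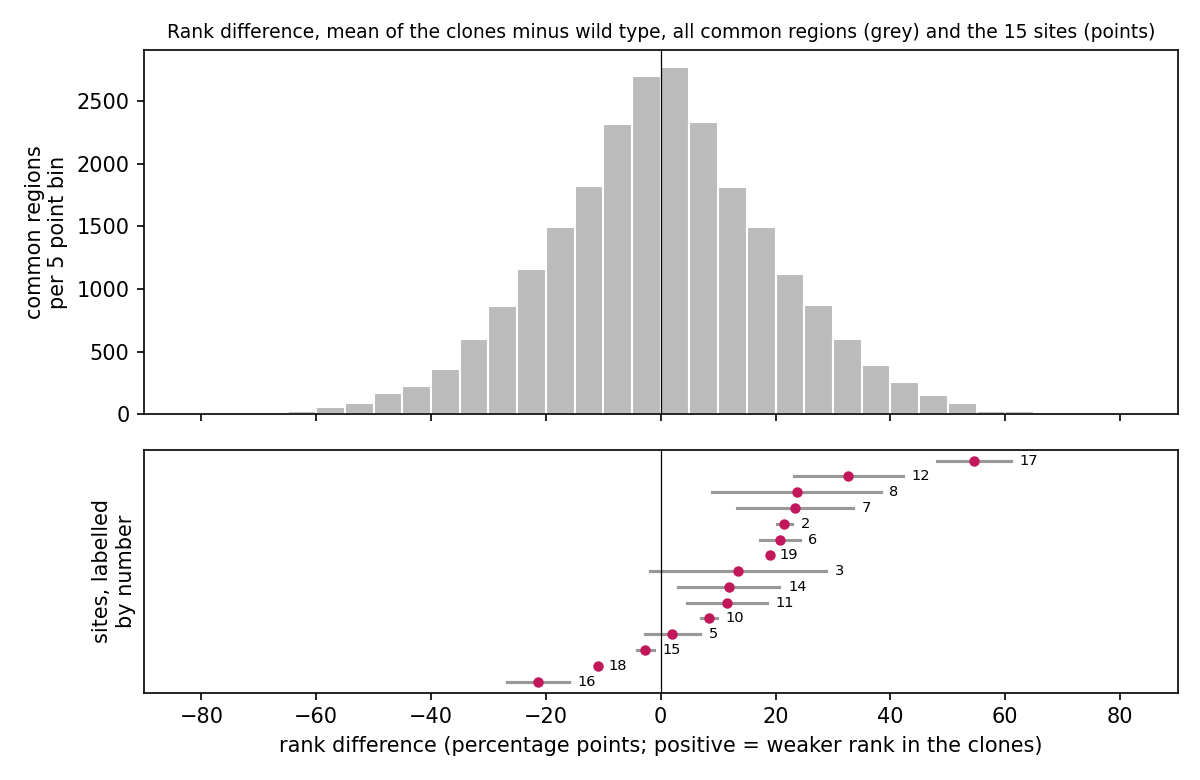
Difference in percent rank between the clones and wild type. Grey bars count all 23933 common sites by the mean of the clones minus wild type, in bins of 5 points (x axis, positive where the rank is weaker in the clones), and below them each point is 1 of the 15 sites with a line from one clone to the other. Site 17 at 54.5 points and site 12 at 32.7 points lie farthest to the weaker side, and site 16 at −21.3 points farthest to the stronger side.

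The window was rich in called sites in each library. It held 18 wild-type peaks, where a stretch of the same length held a median of 5 over the 5720 stretches into which the chromosomes were divided, and more than 91.5% of the stretches. Clone D had 16 peaks against a median of 3, and clone C8 had 17 against a median of 3. The sites were uneven in spacing: sites 11 and 12, sites 7 and 8 and the group of sites 3, 4 and 5 lay within 5 kb of a neighbour, while the longest stretch without a peak, 74.2 kb between sites 14 and 15, lay beyond Entpd4. Of the 15 shared sites, 7 ranked within the first 50% of the common sites in wild type, 5 in clone D and 6 in clone C8.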

How the data were processed

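CTCF ChIP-seq peak lists of 1 wild-type library and 2 BRD2-null clones were used; the 3 input libraries were not analysed here. The submitters' processing notes name Bowtie 1.0.0, bcl2fastq 1.8.4 and build mm9. No peak caller, setting or use of the inputs is named in these sources. The authors deposited 1 list per library with a fold enrichment (a ratio), a −log10 p and a false discovery rate (a q-value given as a fraction) for each peak. These are the authors' values, and were compared only inside a list. The lists hold no read totals, so depth and precision are unknown, and a missing peak is a site that was not called.

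Sites are connected sets of peaks overlapping by at least 1 bp; positions count from 1. A site was placed relative to the genes by its centre. Every peak of the window is reported, which was the rule for naming sites. The window, its genes and the comparisons were chosen with earlier results of these data known. No test was run. Alternatives were other overlaps, equal list lengths, stricter thresholds, ranks by −log10 p, other bounds and each clone left out. No mm9 genome was used here, so no site sequence or motif is shown; both genes matched the RefSeq table by symbol.

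Python 3.11.15, pandas 2.3.3, numpy 2.4.6, SciPy 1.17.1 and matplotlib 3.10.9 were used. Joining of peaks was tested on simulated data, with 2100 of 2100 simulated sites recovered in the right class. On the deposited lists, bedtools 2.31.1 gave the same number for 6 of 6 overlaps.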

Additional observations from a re-analysis of the deposited data

How the results depend on the processing

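All alternatives were planned. Of 48 counts under an alternative, 42 stayed within 1.5 times the reported count, among them the sites of the window called in all lists and the wild-type peaks found in both clones under every alternative run. The 3 sites between the genes were called in both clones under each alternative, apart from 2 after extension by 500 bp, which joins sites 11 and 12, and 0 in an interval narrowed by 10 kb on each side, which holds none of them. Sites in wild type only numbered 1 with lists of equal length by −log10 p, which was site 9. They also numbered 1 at a −log10 p of at least 10, but this was site 13. At that threshold sites 1 and 9 and the clone C8 peak of site 13 drop out. With lists of equal length by enrichment the count stayed at 2, but site 13 took the place of site 1. The count was 0 when the false discovery rate was held to 0.05 or less. Sites that both clones had and wild type lacked numbered 0 after extension and 2 at that rate. The wild-type peak of site 15 drops out at that rate. The peaks of site 13 in wild type and clone C8 also drop out, so the clones no longer differ there. Leaving out each clone gave 15 to 16 wild-type peaks found in the other, 15 to 16 sites shared, 2 to 3 in wild type only and 1 absent from wild type, and the 3 sites between the genes each time. Of 30 rank differences of single sites, 22 moved by less than the standard deviation of the clones and 7 by more. By −log10 p the mean difference changed sign at site 15, from −2.70 to 1.40 points, and at site 5, from 2.03 to −11.98 points; the cause was not tested. No paired analysis was possible because no label numbers the libraries and nothing was tested. Unknown depth limits each missing call.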

Other observations

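The window lies at the edge of a long stretch without called CTCF sites. Site 1 was preceded by 416 kb of chromosome 14 in which none of the 3 lists had a peak, and 1.33% of the 48346 gaps between neighbouring sites were longer. The nearest site before site 2 that all 3 libraries called was 982 kb away. On the side of Entpd4 the next site after the window was 72.9 kb from site 19. It was called in wild type only (70206727 to 70207088), with an enrichment of 13.9. It was followed by sites called in all lists, among them one at 70252647 to 70253168 with enrichments of 75.3 in wild type, 51.04 in clone D and 52.97 in clone C8.

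Many peaks of a list shared the same enrichment, which sets a limit to ranks. Sites 2, 10 and 14 had the same wild-type enrichment of 31.7, a value that 555 wild-type peaks share, although their −log10 p values were 16.6, 18.9 and 14.9. Sites 2 and 17 likewise shared the value of 15.6 in clone C8 with 211 peaks in all. In wild type the value of site 12 was held by 236 peaks and that of site 17 by 372. The whole lists held 4324 distinct enrichments in wild type, 3811 in clone D and 4361 in clone C8.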
